A study of Drosophila melanogaster with 76 samples.

Results

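The Cpr genes of Drosophila melanogaster encode cuticular proteins of the Rebers-Riddiford family, and 70 of the 14227 protein-coding, microRNA and snRNA genes in the annotation carry a symbol that starts with Cpr and a digit. All 70 were followed through ChIP-seq peak lists, which give the stretches of chromatin recovered with an antibody. Larvae labelled 48AEL were profiled for RNA polymerase II (Pol II) as wild type (WT) and as ZygoticMutant, with 2 lists each. Embryos labelled 1 to 1.5 h and 2.5 to 3 h were profiled as WT and Mutant, again with 2 lists per antibody, stage and genotype. Their antibodies were against Pol II, Pol II phosphorylated on serine 5 (pSer5), and the chromatin-binding factors Zelda and GAF, and in WT embryos also against IntS11, the RNA-cleaving subunit of the Integrator complex. The words IntS11 mislocalized stand in the titles of the WT and of the mutant embryo samples, apart from the WT samples profiled for IntS11, and the labels name no allele, promoter or driver. A list gives the start and end of each peak on build dm6 and nothing else, so read depth was unknown. A gene was called bound in a group when a peak of each of its 2 lists overlapped the 500 bp either side of the gene's start or end. The annotation gives no strand, so a gene's start here is its lower coordinate and need not be its promoter.

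Cpr proteins carry the Rebers-Riddiford consensus, a chitin-binding domain that anchors them in the exoskeleton. The family is usually divided into RR-1 proteins, found mostly in soft cuticle, and RR-2 proteins, found mostly in hard cuticle. Epidermal cells secrete the first larval cuticle late in embryogenesis and renew the cuticle at each moult, under the control of ecdysone. Pol II at a gene is a sign of transcription or of a polymerase paused near the promoter, and pSer5 is the form found early in elongation. Zelda and GAF open chromatin in the early embryo.

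The 70 genes lay in 33 loci when members no more than 20 kb apart were joined. Chromosome arm 3L held 35 of them and 2R held 21, while 2L and 3R held 5 each and the X chromosome 4. Members were short, with a median length of 1093.5 bp against 2105 bp for all genes. Of the 70, 49 sat in 12 loci of 2 or more Cpr genes, the largest being the 8 genes from Cpr49Aa to Cpr49Ah on 2R. In chromatin from mixed cells, binding in few cells and weaker binding in many cannot be told apart, which applies to every group below. The lists of a group come from duplicate ChIP reactions, and no source used here says that they came from separate collections. Their spread may therefore be technical, and p-values measure only the spread between lists. The larva against embryo test pools lists of both genotypes, and in embryos of both stages, so its spread includes these differences too.

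The Pol II lists held 5696 to 8199 peaks in larvae, 7097 to 9481 in WT embryos and 4498 to 8821 in mutant embryos. A peak lay near 38.1% to 47.0% of all genes in the larval lists and near 48.3% to 55.4% in the WT embryo lists. In the mutant embryo lists the share was 1.67% to 8.32%. Housekeeping genes were bound in WT larvae for 8 of 9 members and muscle genes for 8 of 12, whereas genes of the early embryo were bound for 1 of 12 and genes of the germ line for 0 of 4. In WT embryos at 1 to 1.5 h, 10 of the 12 early embryo genes and 2 of the 12 muscle genes were bound.

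In WT larvae Pol II bound 9 of the 70 Cpr genes, or 12.9%, against a background of 35.3% over all genes. They were Cpr51A, Cpr62Ba, Cpr62Bb, Cpr62Bc, Cpr65Au, Cpr65Aw, Cpr67B, Cpr73D and Cpr78Cb. Replicate 1 alone gave 19 Cpr genes (27.1%, against 47.0% of all genes) and replicate 2 alone gave 10 (14.3%, against 38.1%). Replicate 1 held 8199 peaks and replicate 2 held 5696, and the part of this difference in the count was not tested. With peaks shorter than 500 bp left out, 3 members were bound, against 23.8% of all genes.

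The longest larval peaks at Cpr genes stood at Cpr73D and Cpr65Au. At Cpr73D (3L, 16939100 to 16957689), the longest member at 18590 bp, the peaks measured 1240 and 1487 bp in the WT lists and 1980 and 1809 bp in the zygotic-mutant lists. All 4 lay over the gene's upper end, which overlaps the neighbouring gene Ogdh, a subunit of the oxoglutarate dehydrogenase complex, so the 2 genes could not be separated there. At Cpr65Au (3L, 6131242 to 6132109) the peaks measured 1650 and 1364 bp in WT larvae. Their centres lay nearest to Lcp65Ag3, a larval cuticle protein gene next to it, and the antisense RNA gene asRNA:CR46005 overlaps Cpr65Au.

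Cpr67B (3L, 9404797 to 9406174) had a peak at its lower end in every larval list, of 644 and 490 bp in WT and 853 and 936 bp in zygotic-mutant larvae. No other gene had an end within reach of these peaks, and their centres lay 26 to 124 bp from the end of Cpr67B. Both zygotic-mutant peaks were longer than both WT peaks. At Cpr78Cb (3L, 21294492 to 21296698) the WT larval peaks measured 688 and 892 bp, and they too touched no other gene's window.

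The neighbours Cpr62Ba, Cpr62Bb and Cpr62Bc on 3L were bound together in WT larvae. Cpr62Ba and Cpr62Bb shared a peak of 646 and 489 bp in the gap between them, so they give 1 observation and not 2. The counts of members given here include both. Cpr62Bc had a peak of its own of 366 and 350 bp. At Cpr65Aw (3L, 6141903 to 6142413) the WT larval peaks were the shortest at any bound member, at 273 and 283 bp. These 4 genes had no peak in any of the 36 embryo lists, a pattern with WT larval binding that 1.64% of all genes had. At Cpr51A the WT larval peaks of 475 and 473 bp covered none of the gene body. They were centred 618 and 536 bp from an end of Asx, a gene of a Polycomb-group deubiquitinase, and 684 and 602 bp from Cpr51A.

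In WT larvae the 500 bp limit fell in a gap of the distances. Taking the farther of the 2 WT larval lists, Cpr51A was the outermost bound member with 447 bp between peak and gene end. The nearest members outside were Cpr67Fb at 660 bp and Cpr67Fa2 at 722 bp. Other groups had members closer to the limit by the same measure. In zygotic-mutant larvae Cpr65Ec lay outside at 529 bp. In WT embryos at 1 to 1.5 h Cpr31A was bound at 482 bp and Cpr60D lay outside at 572 bp. At 2.5 to 3 h Cpr78Ca lay outside at 508 bp in WT embryos. Over all 70 members the median distance to the nearest peak was 9596 bp in WT larvae and 8821 bp in zygotic-mutant larvae. It was 14222.5 bp in WT embryos at 1 to 1.5 h and 14262 bp at 2.5 to 3 h.

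**Figure D1:**
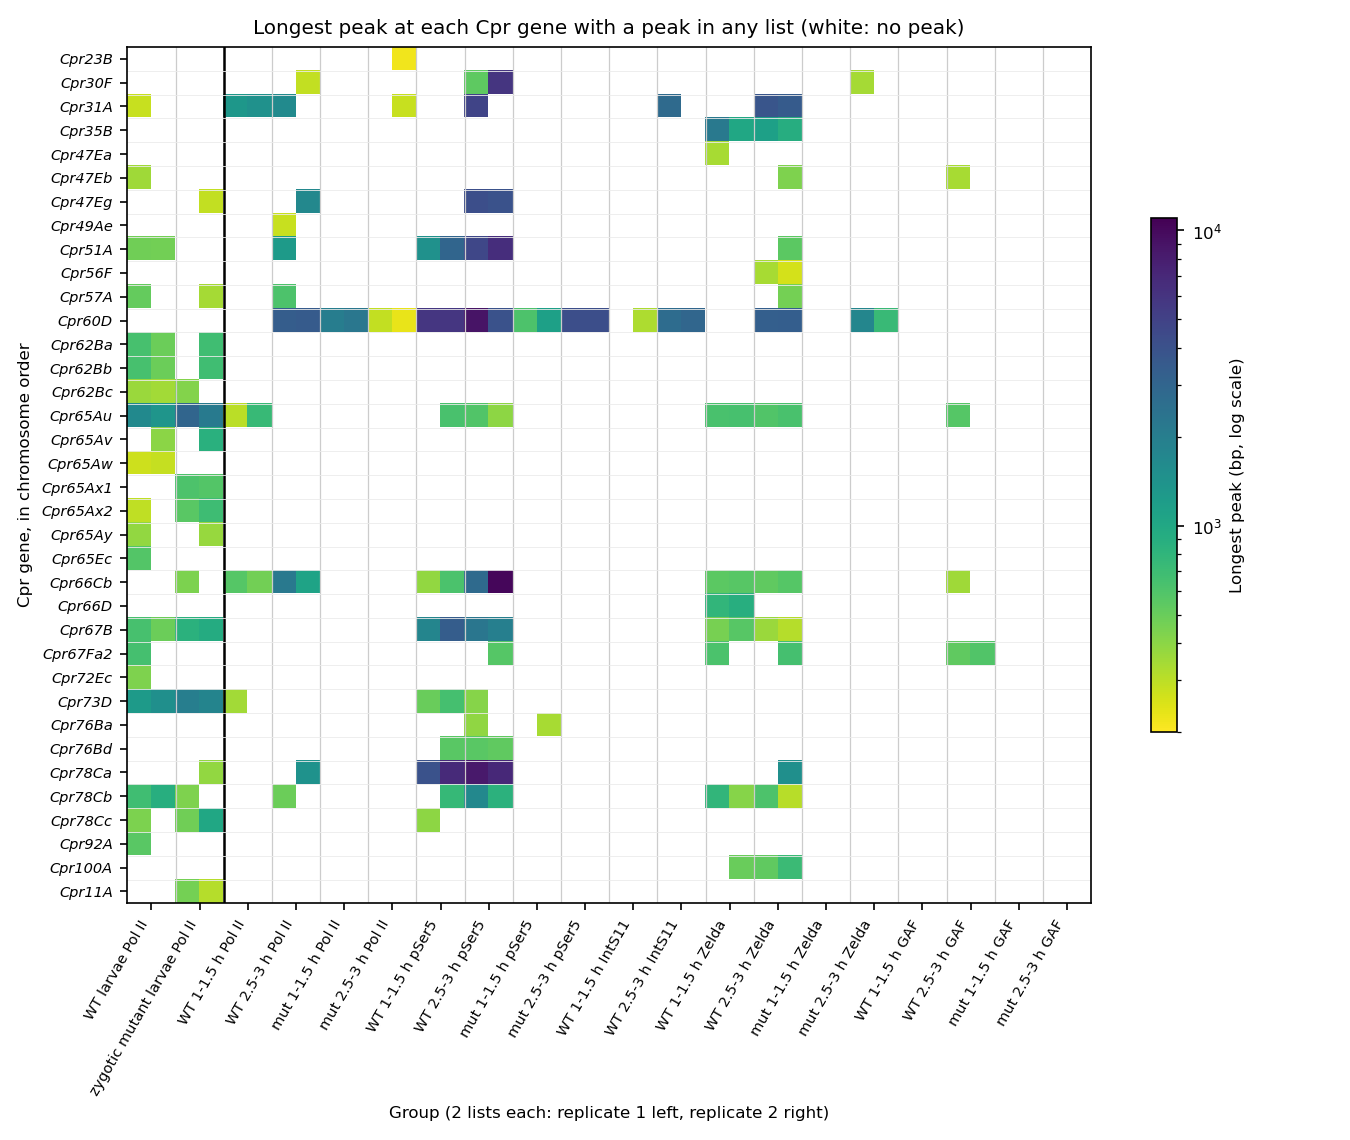
Longest peak (bp, log colour scale) within 500 bp of either end of each of the 36 Cpr genes that had a peak in any of the 40 lists, in chromosome order, with replicate 1 on the left and replicate 2 on the right of each group. The larval Pol II lists stand left of the black line, and most genes with a larval peak show few or none among the embryo Pol II lists beside them, while Cpr60D shows none in larvae and peaks in 21 embryo lists.

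Pol II bound 7 of the 70 Cpr genes in zygotic-mutant larvae, against 38.2% of all genes. Either larval group bound 13 members (18.6%, against 42.4%). In zygotic-mutant larvae replicate 1 alone gave 10 members (against 42.5% of all genes) and replicate 2 alone 14 (against 46.9%). Cpr65Au, Cpr67B and Cpr73D were bound in both larval groups, a share of 4.29% against 31.1% of all genes. Of the genes bound in WT larvae, 3 of 9 Cpr genes (33.3%) were also bound in zygotic-mutant larvae, against 4425 of 5017 genes (88.2%). In replicate 1 alone 7 members (against 37.9% of all genes) and in replicate 2 alone 6 members (against 34.8%) had a peak in both genotypes. With 2 lists against 2 the smallest two-sided exact p is 0.333, so no member could pass a test of WT against zygotic mutant.

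The members that differed fell into 4 patterns. Cpr51A and Cpr65Aw were bound in WT larvae and had no peak in either zygotic-mutant list, as had 0.928% of all genes. Cpr62Ba, Cpr62Bb, Cpr62Bc and Cpr78Cb kept a peak in 1 zygotic-mutant list, against 3.23% of all genes. At Cpr78Cb that peak measured 432 bp, shorter than both WT peaks. The peak shared by Cpr62Ba and Cpr62Bb measured 686 bp, longer than both WT peaks.

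Cpr65Ax1 and Cpr11A were bound in zygotic-mutant larvae with no peak in either WT larval list, against 1.76% of all genes. The peaks at Cpr65Ax1 (3L, 6147531 to 6147987), which also reached the window of Lcp65Ab2, measured 611 and 581 bp and covered the whole gene. Those at Cpr11A (X, 12486970 to 12489448) measured 462 and 311 bp at its lower end, with no other gene in reach. Cpr65Ax2 and Cpr78Cc were bound in zygotic-mutant larvae and had a peak in 1 WT list, as did 5.35% of all genes. At Cpr65Ax2 peaks that also reached Lcp65Ab1 and Lcp65Aa measured 558 and 689 bp in zygotic-mutant larvae, with 294 bp in WT replicate 1. At Cpr78Cc the lengths were 476 and 1011 bp against 440 bp. Cpr65Ax1 and Cpr65Ax2 are near-identical copies, and reads from one may have been placed at the other.

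The contrast of larvae with embryos was made over Pol II alone, the antibody shared by both ages. In WT embryos Pol II bound 3 Cpr genes at 1 to 1.5 h, or 4.29%, against 45.8% of all genes, and 2 at 2.5 to 3 h, or 2.86%, against 51.8%. So the share of Cpr genes bound was higher in WT larvae than at either embryo stage, while the share of all genes was lower. Single lists gave 4 and 3 Cpr genes at 1 to 1.5 h and 7 and 5 at 2.5 to 3 h, against 48.3% to 55.4% of all genes. These counts were all below the 19 and 10 of the WT larval lists. With 250 bp windows WT embryos had 1 bound member at each stage, and with 1000 bp windows 5 and 6, against 43.8% to 54.5% of all genes.

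A set of 8 Cpr genes (11.4%) was bound in WT larvae and at neither WT embryo stage, against 5.28% of all genes. Among genes bound in WT larvae this was 8 of 9 Cpr genes (88.9%) against 751 of 5017 genes. The exception was Cpr65Au, which Pol II also bound in WT embryos at 1 to 1.5 h. Within the 8, the genes Cpr62Ba, Cpr62Bb, Cpr62Bc, Cpr65Aw and Cpr67B had no Pol II peak in any of the 4 WT embryo lists (5 members, against 3.89% of all genes). The opposite pattern, bound in WT embryos and not in WT larvae, held for Cpr31A, Cpr60D and Cpr66Cb, or 4.29% against 23.4%. With replicate 2 left out the count of 8 became 13, against 7.49% of all genes. With peaks shorter than 500 bp left out it became 3 of 70, close to the 3.7% of all genes.

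Two-sided Fisher's exact tests compared, gene by gene, how many of the 4 larval and how many of the 8 embryo Pol II lists had a peak, with Benjamini-Hochberg adjustment over all 14227 genes. No gene passed an adjusted p of 0.05 in either direction (0.0% of all genes), because the smallest p this design allows, 0.00202, came to 0.0713 after adjustment. That smallest value belonged to Cpr67B, with a peak in 4 of 4 larval and 0 of 8 embryo lists, a pattern found at 2.66% of all genes. With 1000 bp windows, which reach further into the neighbouring genes, its p was 0.0606 (Fisher's exact, adjusted p = 0.571). Cpr73D followed with 4 of 4 larval lists and 1 of 8 embryo lists (Fisher's exact p = 0.0101, adjusted p = 0.267). Cpr62Ba, Cpr62Bb, Cpr62Bc, Cpr65Ax2 and Cpr78Cc each had 3 of 4 larval and 0 of 8 embryo lists (Fisher's exact p = 0.0182, adjusted p = 0.346). The results of Cpr62Ba and Cpr62Bb come from the same peaks.

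Thus 7 Cpr genes had an unadjusted Fisher's exact p under 0.05 with larvae higher, against 4.88% of all genes, and 0 with embryos higher, against 0.373%. These 2 counts do not compare like with like. Of the 8 embryo lists 4 came from mutant embryos and had a peak near only 1.67% to 8.32% of all genes. A gene with embryo peaks in the WT lists alone could reach at most 4 of 8. The member most frequent in embryo lists was Cpr60D, with 0 of 4 larval and 6 of 8 embryo lists (Fisher's exact p = 0.0606, adjusted p = 0.592). Cpr65Au had the same p in the other direction, with 4 of 4 and 2 of 8 lists. With the 4 WT embryo lists alone as the comparison, 1 member, Cpr67B, remained under 0.05 (Fisher's exact p = 0.0286, adjusted p = 0.348). That was 1 of 70 members, against 2.89% of all genes. With the 2 WT larval lists alone, 5 members were under 0.05, against 3.59% of all genes.

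**Figure D2:**
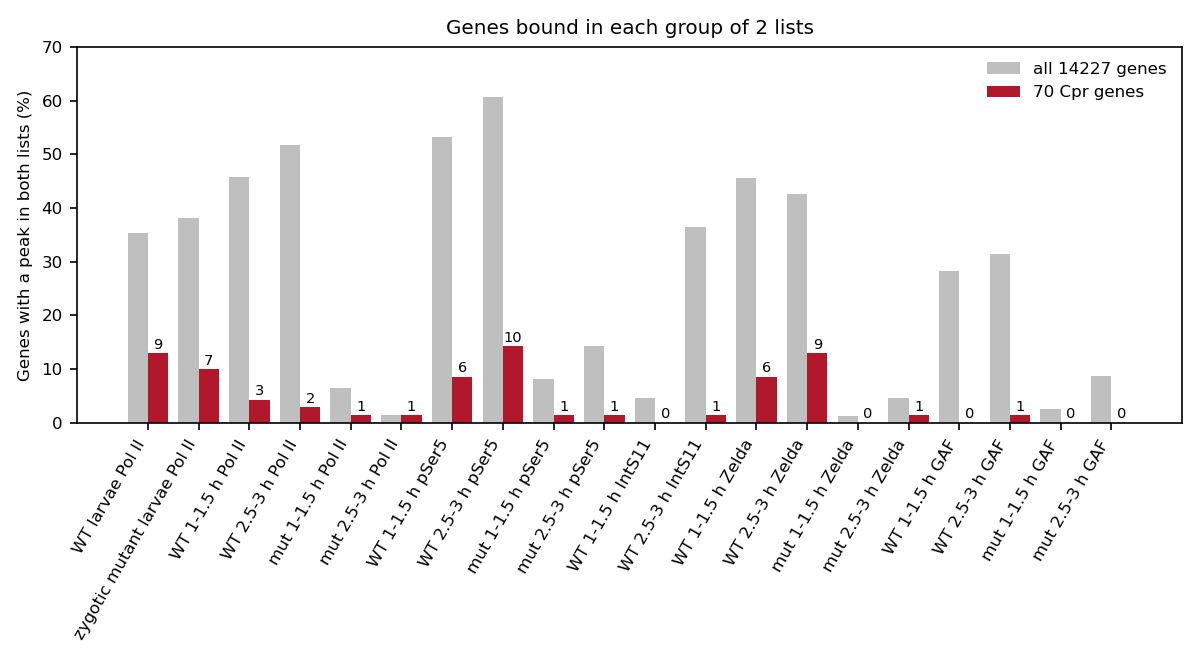
Percentage of the 70 Cpr genes (red, with their number above the bar) and of all 14227 genes (grey) that had a peak in both lists of each of the 20 groups. The red bar is below the grey one in every group, with 1.43% against 1.45% in mutant Pol II lists at 2.5 to 3 h, and among Pol II groups it is tallest in WT larvae, with 9 genes or 12.9%.

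The Pol II peaks that reached Cpr genes in WT embryos lay nearer to other genes. For each bound member it was asked whether the centre of a peak was nearest to that member's own end in both lists. This held for 6 of 9 members in WT larvae and 6 of 7 in zygotic-mutant larvae, and over all bound genes for 58.1% and 57.6%. It held for 0 of 3 members in WT embryos at 1 to 1.5 h and 0 of 2 at 2.5 to 3 h, where the shares of all bound genes were 56.5% and 54.9%. Counted as peaks, 41 of the 57 larval peaks near Cpr genes had a Cpr gene end nearest their centre, against 6 of 19 in WT embryos.

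At Cpr31A the WT embryo peaks of 1315 and 1450 bp at 1 to 1.5 h were centred 174 and 158 bp from Pen, an importin alpha gene, and 1139 and 1122 bp from Cpr31A. At Cpr66Cb the peaks of 572 and 472 bp were centred 8 and 18 bp from Pex2, a gene of peroxisome assembly. At 2.5 to 3 h the peaks there grew to 2184 and 1075 bp, with Pex2 still the nearest gene. The peaks at Cpr60D, of 3386 and 3476 bp at 2.5 to 3 h, were centred 32 and 84 bp from ND-19, a subunit gene of mitochondrial complex I. At Cpr65Au the 301 bp peak of replicate 1 was nearest to Cpr65Au and the 734 bp peak of replicate 2 to Lcp65Ag2.

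**Figure D3:**
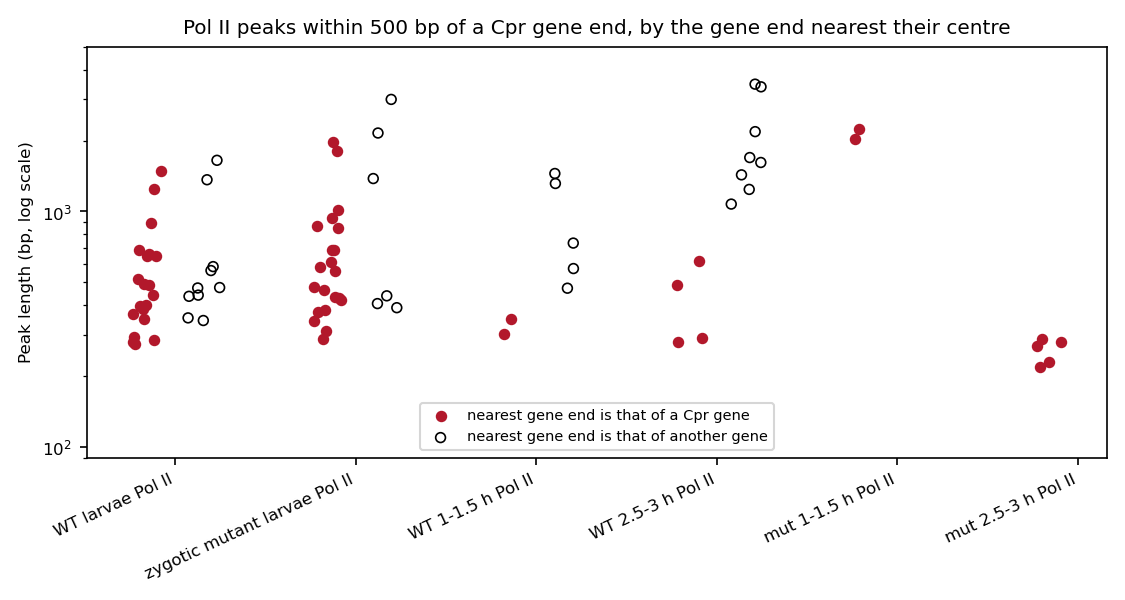
Length (bp, log axis) of every Pol II peak within 500 bp of a Cpr gene end, by group, with both lists of a group pooled. Filled points have a Cpr gene end nearest their centre and open points the end of another gene; the longest peaks of WT embryos at 2.5 to 3 h, of 1075 to 3476 bp, are all open, and 20 of 30 WT larval peaks are filled.

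In WT embryos pSer5 and Zelda bound more members than Pol II did, and GAF and IntS11 fewer. The pSer5 form bound 6 Cpr genes at 1 to 1.5 h (8.57%, against 53.3% of all genes) and 10 at 2.5 to 3 h (14.3%, against 60.6%). Members bound by pSer5 and not by Pol II made up 7.14% of the family at the earlier stage, against 8.65% of all genes, and 11.4% at the later stage, against 9.17%. Among genes bound by pSer5, this was 5 of 6 members against 1231 of 7583 genes (16.2%) at the earlier stage and 8 of 10 against 1305 of 8624 genes (15.1%) at the later one. The longest of these peaks were centred on neighbours, as at Cpr78Ca with 4033 and 6834 bp at 1 to 1.5 h and 8306 and 6883 bp at 2.5 to 3 h, nearest to pzg. Cpr51A had pSer5 peaks of 1453 and 2967 bp and then 4659 and 6479 bp, nearest to Asx in all 4 lists.

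Some pSer5 peaks were nearest to the member itself. At Cpr73D they measured 503 and 648 bp at 1 to 1.5 h, in the same stretch as the larval Pol II peaks, and 412 bp in replicate 1 at 2.5 to 3 h with none in replicate 2. At Cpr76Bd the peaks measured 558 and 530 bp at 2.5 to 3 h, with 557 bp in 1 list of the earlier stage. At Cpr67B, which had no embryo Pol II peak, pSer5 peaks nearest to Cpr67B of 1368 and 1639 bp appeared at 2.5 to 3 h, and others of 2291 and 1938 bp were nearest to CG4022 at its upper end. At 1 to 1.5 h the pSer5 peaks at Cpr67B were nearest to CG4022 and to eIF4E1, a translation initiation factor gene.

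Zelda bound 6 Cpr genes in WT embryos at 1 to 1.5 h (8.57%, against 45.5% of all genes) and 9 at 2.5 to 3 h (12.9%, against 42.6%). Cpr35B, Cpr65Au, Cpr66Cb, Cpr67B and Cpr78Cb were bound at both stages. A Zelda peak was centred nearest to the member in both lists for 1 of 6 members at the earlier stage, against 58.8% of all bound genes. At the later stage this held for 3 of 9, against 59.4%. The Zelda peaks at Cpr65Au were nearest to Lcp65Ag2, those at Cpr66Cb to Pex2, and those of replicate 2 at Cpr78Cb to Edg78E. At Cpr67B the later peaks of the 2 lists lay at opposite ends of the gene. At Cpr35B (2L, 14424315 to 14425189) the longest Zelda peaks measured 2170 and 1008 bp at the earlier stage and 1132 and 900 bp at the later one. No other gene end was in reach of them, and no other antibody had a peak at Cpr35B in any list. Cpr56F and Cpr100A were bound at 2.5 to 3 h with a Zelda peak nearest to the member in both lists, of 338 and 259 bp at Cpr56F and 534 and 713 bp at Cpr100A.

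GAF bound none of the 70 at 1 to 1.5 h, against 28.2% of all genes, and 1 at 2.5 to 3 h (1.43%, against 31.5%). That member was Cpr67Fa2, with peaks of 529 and 591 bp, and its near-identical neighbour Cpr67Fa1 had no peak in any list. None of the Zelda-bound members was bound by GAF at the same stage under the rule of 2 lists. At 2.5 to 3 h, GAF replicate 1 alone had peaks at Cpr65Au (575 bp) and Cpr66Cb (355 bp), both bound by Zelda. Zelda with bound GAF was found at 25.2% and 27.5% of all genes, and Zelda without it at 20.3% and 15.1%. IntS11 bound no member at 1 to 1.5 h, against 4.65% of all genes, and Cpr60D alone at 2.5 to 3 h (1.43%, against 36.5%), with peaks of 2680 and 2934 bp nearest to CG34214.

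In mutant embryos Cpr60D was the 1 member bound by any antibody (1.43%, against 24.8% of all genes). For Pol II at 2.5 to 3 h, replicate 2 alone had a peak at 3 members (4.29%, against 3.42% of all genes). It added Cpr23B and Cpr31A with 218 and 280 bp. By antibody, the background shares in mutant embryos at 1 to 1.5 h and 2.5 to 3 h were 6.49% and 1.45% for Pol II, 8.22% and 14.2% for pSer5, 1.31% and 4.55% for Zelda, and 2.59% and 8.72% for GAF. All 6 members bound by Zelda in WT embryos at 1 to 1.5 h had no Zelda peak in either mutant list, as had 6195 of the 6471 genes bound by Zelda in WT (95.7%). Over all genes these shares were 8.57% of the family and 43.5% of the background. At 2.5 to 3 h the same held for 8 of 9 members and 83.2% of the genes bound by Zelda in WT, which is 11.4% of the family against 35.5% of all genes. The members were thus near the background of bound genes at both stages. The ninth was Cpr60D, with Zelda peaks of 3254 and 3306 bp in WT and 1736 and 733 bp in mutant embryos.

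At Cpr60D (2R, 24662682 to 24663406) the Pol II peaks of the mutant lay over the gene itself. At 1 to 1.5 h the WT peaks, of 2345 and 2377 bp, lay 572 and 520 bp from the gene, just outside the window, and the mutant peaks measured 2028 and 2237 bp and spanned all 725 bp of the gene. At 2.5 to 3 h the longest WT peaks of 3386 and 3476 bp covered none of the gene body, whereas the mutant peaks of 287 and 230 bp lay inside it. The pSer5 peaks measured 5850 and 5824 bp in WT and 614 and 1128 bp in mutant embryos at 1 to 1.5 h. At 2.5 to 3 h they measured 8946 and 4009 bp in WT and 4204 and 4225 bp in mutant embryos, so the genotypes overlapped. Cpr60D had no Pol II peak in any larval list.

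The locus from Cpr65Au to Cpr65Az on 3L held 7 Cpr genes, interleaved with 11 Lcp65A and Acp65A genes, which encode larval and adult cuticle proteins. Of the 7 Cpr genes 6 had a Pol II peak in at least 1 larval list, and Cpr65Az had a peak in none of the 40 lists. Pol II bound Cpr65Au and Cpr65Aw in WT larvae, and Cpr65Au, Cpr65Ax1 and Cpr65Ax2 in zygotic-mutant larvae. Of the 11 interleaved genes 3 were bound in WT larvae and 8 in zygotic-mutant larvae. Some of these calls rest on peaks also counted at Cpr genes, so they are not separate observations. Lcp65Ag3 shared the peaks of Cpr65Au in WT larvae. In zygotic-mutant larvae Lcp65Ab2 shared those of Cpr65Ax1, and Lcp65Ab1 and Lcp65Aa shared those of Cpr65Ax2. In WT embryos 1 of the 11 was bound at 1 to 1.5 h, Lcp65Ag2, through the peaks counted at Cpr65Au. None was bound at 2.5 to 3 h.

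The longest peaks of the locus ran over the copies Lcp65Ag1, Lcp65Ag2 and Lcp65Ag3. At Lcp65Ag1 the peaks measured 1023 and 2120 bp in WT larvae and 2994 and 1607 bp in zygotic-mutant larvae, so the genotypes overlapped. These genes are near-identical, and reads cannot be placed among them with certainty. Cpr65Av and Cpr65Ay each had a peak in 1 list of each larval genotype, of 401 and 865 bp at Cpr65Av and 385 and 373 bp at Cpr65Ay. They were therefore bound in neither genotype by the rule of 2 lists.

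**Figure D4:**
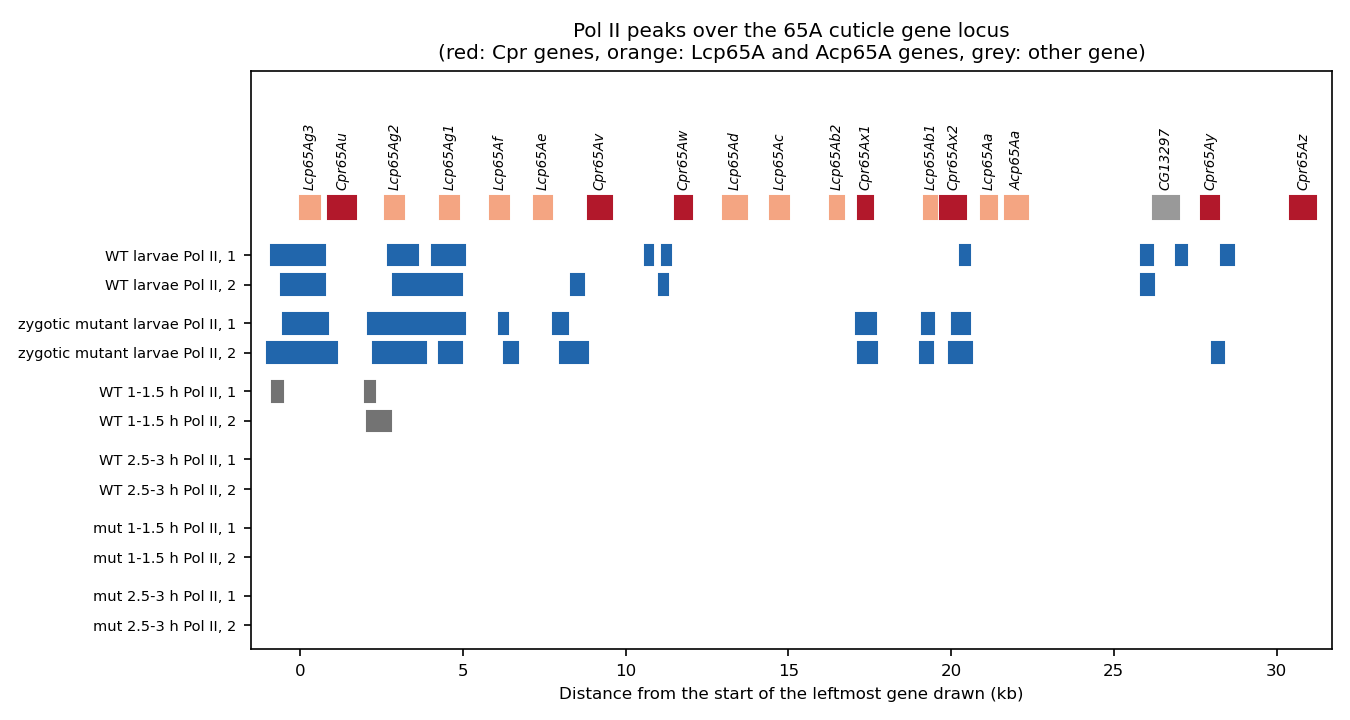
Pol II peaks (bars) in the 12 Pol II lists over the locus from Cpr65Au to Cpr65Az, drawn to scale in kb from the start of the leftmost gene shown, with Cpr genes in red, Lcp65A and Acp65A genes in orange and 1 other gene in grey. Larval peaks (blue) stand over the left end of the locus in all 4 lists, those at Cpr65Ax1 in the zygotic-mutant lists alone, and WT embryo peaks (grey) in the 1 to 1.5 h lists alone.

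Several other clusters of the family carried few or no peaks, unlike Cpr62Ba to Cpr62Bc and Cpr78Ca to Cpr78Cc, where all 3 genes of each had a larval peak. From Cpr49Aa to Cpr49Ah 7 of the 8 genes had no peak in any of the 40 lists, and the remaining one, Cpr49Ae, had a 280 bp Pol II peak in 1 WT embryo list. All 4 genes from Cpr64Aa to Cpr64Ad, both Cpr50C genes and both Cpr97E genes had none. The 4 Cpr64A genes lie inside the longer gene CG43367. Of the 7 Cpr47E genes 4 had no peak, and Cpr47Eg was bound by pSer5 at 2.5 to 3 h through peaks of 4229 and 4004 bp nearest to CG9062.

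In all, 34 of the 70 Cpr genes (48.6%) had no peak in any list, against 20.3% of all genes. No larval list had a peak at 45 (64.3%, against 43.2%). At least 1 of the 20 groups bound 25 members (35.7%, against 71.7%), and at least 1 embryo group bound 17 (24.3%, against 68.5%). A peak in 1 list only was found at 6 members, and 10 had peaks in 5 or more. After Cpr60D with 21 lists came Cpr65Au and Cpr66Cb with 14 each, Cpr67B with 12 and Cpr78Cb with 11.

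Shorter genes were bound less often over all genes, and Cpr genes are short, so both were split at the median Cpr length. Among genes of at most 1093.5 bp, Pol II in WT larvae bound 2 of 35 Cpr genes (5.71%) and 19.8% of all 3398 such genes. Among longer genes it bound 7 of 35 (20.0%) and 40.1%. In zygotic-mutant larvae it bound 4 of 35 shorter Cpr genes (11.4%, against 21.1%) and 3 of 35 longer ones (8.57%, against 43.6%). In WT embryos at 1 to 1.5 h it bound 1 of 35 shorter (2.86%, against 29.0%) and 2 of 35 longer ones (5.71%, against 51.1%). In WT embryos at 2.5 to 3 h it bound 1 of 35 shorter Cpr genes (2.86%, against 34.0%) and 1 of 35 longer ones (2.86%, against 57.3%).

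Other genes of cuticle formation were counted by the same rule. Of 29 other cuticle genes Pol II bound 4 in WT larvae, 9 in zygotic-mutant larvae, and 2 and 1 in WT embryos at the 2 stages. Of the 25 Tweedle genes, a separate family of cuticle proteins, it bound 0 in either larval group and 0 and 1 in WT embryos. TwdlO and TwdlK shared a peak of 409 bp in WT replicate 1 and of 360 bp in zygotic-mutant replicate 1 and had none in the other larval lists.

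Genes of chitin synthesis and cuticle assembly were bound more often than the cuticle proteins, with 13 of 22 in WT larvae and 15 of 22 in zygotic-mutant larvae. In WT embryos 6 of 22 were bound at 1 to 1.5 h and 7 of 22 at 2.5 to 3 h. Among these genes mmy, which makes the sugar donor for chitin, had peaks of 1446 and 1044 bp in WT larvae and 2566 and 2361 bp in WT embryos at 1 to 1.5 h. Of the chitinases, Cht7 had peaks of 2289 and 2222 bp in WT larvae and of 2124 to 2451 bp in WT embryos. Cht2 had peaks of 956 and 1195 bp in WT larvae. In WT embryos it had peaks of 645 and 397 bp at 1 to 1.5 h and none at 2.5 to 3 h. Genes of cuticle tanning were bound for 1 of 10 in WT larvae and 2 of 10 in zygotic-mutant larvae. Ddc, which makes dopamine, had a 409 bp peak in 1 WT list and peaks of 377 and 425 bp in both zygotic-mutant lists.

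Of 16 epidermal and ecdysone-response genes, mostly transcription factors, Pol II bound 7 in WT larvae, 3 in zygotic-mutant larvae, and 9 and 8 in WT embryos. The nuclear receptor gene ftz-f1, known to act at moults, had peaks of 978 and 799 bp in WT larvae and 430 bp in 1 zygotic-mutant list. E23, an ecdysone-response transporter gene, had peaks of 1535 and 853 bp in WT and 2232 and 760 bp in zygotic-mutant larvae. Genes of other tissues in WT larvae and zygotic-mutant larvae were bound for 8 and 9 of 12 in muscle, 1 and 1 of 20 gut enzymes, 2 and 2 of 10 in fat body, 3 and 3 of 8 in neurons, 1 and 2 of 5 in hemocytes and 2 and 2 of 4 in tracheae. The part of tissue makeup in the Cpr counts was not tested.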

How the data were processed

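Peak lists of 40 of the 76 samples were used, 1 list per sample, and 36 samples were not analysed here. Per the file contents the deposited lists hold chromosome, start and end of each peak in bp, with no other measured value. Per the submitters' processing notes the build was dm6 and the tools included MACS2 2.2.7.1 and Bowtie2 2.2.5, with Trimmomatic, SAMtools and deepTools also named; thresholds and control libraries are not given in the sources used here. Genes came from a RefSeq table of the Release 6 assembly. It holds no strand, exons or sequence, so no sequences are shown. An overlap of 1 bp with a 500 bp window counted, and a gene's value was its longest such peak. Fisher's exact tests were run with scipy 1.17.1, checked on simulated lists, and adjusted by Benjamini-Hochberg at 0.05. The Cpr genes and the comparison lists were chosen with earlier results of these data known, and so support nothing independently. Named genes were all members bound in larvae, the 15 of 17 bound in most embryo groups, and up to 4 genes of each comparison list with the longest WT larval peaks; other members, such as Cpr56F, Cpr76Bd, Cpr65Av and Cpr65Ay, were named after their values were seen. Depth per sample was unknown, so no interval is given. Alternatives were other windows and overlaps, longer peaks, harmonised lists, either list, single replicates and blocked tests.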

Additional observations from a re-analysis of the deposited data

Results flagged for a closer look

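The genotype difference in Pol II at Cpr60D went opposite ways at the 2 embryo stages in every list, but only with windows of 500 bp. At 1 to 1.5 h the longest peak averaged 0 bp in WT and 2132.5 bp in mutant embryos, and at 2.5 to 3 h it averaged 3431 bp in WT and 258.5 bp in mutant embryos. The mutant-minus-WT difference was 2132.5 bp at the earlier stage and -3172.5 bp at the later, so that the stages differed by 5305 bp. This difference was not tested. The 0 bp at the earlier stage comes from the window edge, since WT peaks of 2345 and 2377 bp lay 572 and 520 bp from the gene. With 1000 bp windows, an alternative chosen after seeing the data, the earlier difference was -228.5 bp and the later -3172.5 bp, so both stages had shorter peaks in the mutant. The WT peaks at 2.5 to 3 h were centred on ND-19 and the mutant peaks on Cpr60D, so the 2 lengths do not describe the same peak.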

How the results depend on the processing

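Of 80 recomputed counts of bound Cpr genes 54 stayed within 1.5 times the value reported, and 26 did not. The share of all genes under the same setting follows each count below in brackets. With 250 bp windows WT embryos had 1 bound member at each stage (43.8% and 49.6%). With 1000 bp windows they had 5 at 1 to 1.5 h (48.6%) and 6 at 2.5 to 3 h (54.5%). With whole genes the mutant embryos at 1 to 1.5 h had 2 (9.39%). With peaks of at least 500 bp the counts were 3 in WT larvae (23.8%) and 1 in WT embryos at 1 to 1.5 h (37.9%). They were 0 in mutant embryos at 2.5 to 3 h (0.78%) and 3 in WT larvae and neither WT embryo stage (3.7%). With the 4497 longest peaks of each list they were 1 in WT embryos at 1 to 1.5 h (34.7%) and 0 in mutant embryos at 2.5 to 3 h (1.36%). Joining intervals over 280 bp also gave 0 in mutant embryos at 2.5 to 3 h (1.26%). With a peak in either list the counts were 20 in WT larvae (49.8%) and 17 in zygotic-mutant larvae (51.2%). At 2.5 to 3 h they were 10 in WT embryos (57.6%) and 3 in mutant embryos (3.63%). WT larvae and neither WT embryo stage had 14 (7.52%), and both larval groups 12 (44.3%). Leaving out 1 replicate gave 10 to 19 in WT larvae (38.1% to 47.0%) and 10 to 14 in zygotic-mutant larvae (42.5% to 46.9%). At 2.5 to 3 h it gave 5 to 7 in WT embryos (54.0% to 55.4%) and 1 to 3 in mutant embryos (1.67% to 3.42%). WT larvae and neither WT embryo stage had 9 to 13 (5.49% to 7.49%), and both larval groups 6 to 7 (34.8% to 37.9%). The rule of 2 lists becomes 1 list when a replicate is left out, by construction. The share of larval minus embryo lists with a peak at Cpr51A, 0.375, became -0.125 with 250 bp windows and with peaks of at least 500 bp. The WT larval peaks there measured 475 and 473 bp and lay 447 and 366 bp from the gene end. Neither setting counted them, while the 1241 bp peak of WT embryo replicate 1 at 2.5 to 3 h stayed. With 1000 bp windows, chosen after seeing the data, the mutant-minus-WT difference at Cpr60D at 1 to 1.5 h turned from 2132.5 to -228.5 bp, because WT peaks just outside 500 bp entered. Under every setting of the larva against embryo test 0 genes passed the adjusted threshold, which says nothing of stability. In each setting the smallest p that the lists allow was observed, and after adjustment it stayed above 0.05. With more genes at that p the threshold could have been passed. The exception was leaving out 1 replicate, where the smallest Fisher's exact p was 0.0667. With the replicate block 7 Cpr genes stayed under an unadjusted p of 0.05 and the smallest p was 0.00444. Replicate numbers did not pair the groups: deviations correlated between -0.0358 and 0.0112 over 15 pairs of groups. A window at the transcript start alone could not be run without strand. Without reads, an absent peak cannot be told from a shallow library.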
